A study of Mus musculus with 24 samples.

Results

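Partial digestion of liver RNA that had been depleted of small RNAs was examined on 6 of the 24 mouse miRNA arrays of the series. On 3 of them the depleted RNA had been incubated with 0.026 U RNase, and on the other 3 with 0 U RNase. The RNA came from the livers of 3 male mice, numbered 7, 10 and 9, whose strain and age the labels do not give, and each mouse supplied 1 array to each group. The liver pieces were not stored (0 h). Their RNA was isolated with a kit that loses most small RNAs, with DNase digestion on the column, so the depletion and the DNase step were shared by both groups and by the arrays at 0.67 U. In each digestion 3 µg of this RNA was kept for 30 min at 37 °C and then isolated again with a kit that retains small RNAs, without DNase. The 0 U arrays therefore went through incubation and a second isolation, but met no enzyme. The RIN, which scores how intact long RNA is and falls as RNA is cut, was 9.0, 9.1 and 9.2 at 0 U and 7.0, 6.9 and 6.0 at 0.026 U in mice 7, 10 and 9.

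The labels of mouse 9 contradict each other. The title of its array described as 0.026 U names the higher dose, 0.67 U, and the title of its array described as 0.67 U names 0.026 U, with the source name and the RNase entry following the title. Arrays were grouped by the description, which the extraction protocol and the RIN of 6.0 follow. The array of mouse 9 at 0.026 U also stood apart from the others of its group. Over the 631 miRNAs tested, the normalised signals of mice 7 and 10 at 0.026 U correlated with r = 0.973, and those of mouse 9 correlated with them at 0.882 and 0.880. With the 0.67 U arrays of mice 7 and 10 the r of this mouse 9 array was 0.963 and 0.986. The 0.67 U array of mouse 9 correlated with those same arrays at 0.975 and 0.964. With the 0.026 U arrays of mice 7 and 10 it correlated at 0.946 and 0.942. These coefficients run across miRNAs and are descriptions. Results are given for all 3 mice, without mouse 9, and with the doses of mouse 9 taken from the titles.

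A miRNA is a short RNA that is cut from a hairpin precursor by the enzymes Drosha and Dicer and is held by an Argonaute protein. The 2 arms of the hairpin give the 5p and 3p forms, and bases 2 to 8, the seed, pair with target messenger RNAs. In liver, miR-122 is the dominant miRNA of hepatocytes. The array labels any RNA at its 3′ end and hybridizes it to probes for 1881 annotated mouse miRNAs, so a signal shows RNA that hybridizes to a probe and not that a mature miRNA was present. Names with low numbers were given early and those with high numbers late in the growth of the miRNA catalogue. RNA depleted of small RNAs holds fewer mature miRNAs, but the paper states that it is not fully free of them. The mean signal of mmu-miR-122-5p was 2850 at 0 U, against 10087 in fresh liver RNA that kept its small RNAs. Annotations numbered below 300 held 49.2% to 64% of the detected signal at 0 U. The comparison asked which probes light up once the long RNAs of such a sample are partly cut.

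The sequences that carry the result are shown here, from RefSeq (build GRCm38.p6), 5′ to 3′, with the seed in capitals. The first 4 are annotations that were among the brightest or rose most at 0.026 U.
mmu-miR-494-3p: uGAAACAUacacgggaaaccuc
mmu-miR-1224-5p: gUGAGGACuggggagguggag
mmu-miR-8110: aAGCGUGGauugggggggggg
mmu-miR-7036a-5p: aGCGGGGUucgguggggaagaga
The next 4 also rose. Of these, mmu-miR-652-5p was detected on no 0 U array, mmu-miR-135a-1-3p and mmu-miR-134-5p are arms of long-known hairpins, and mmu-miR-6769b-5p was named late.
mmu-miR-652-5p: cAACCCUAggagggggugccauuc
mmu-miR-135a-1-3p: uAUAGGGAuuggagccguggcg
mmu-miR-134-5p: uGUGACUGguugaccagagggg
mmu-miR-6769b-5p: cCUGGUGGguggggaagagc
The last 4 are the annotation that was called lower and 3 miRNAs of liver and blood cells that passed no test.
mmu-miR-7080-3p: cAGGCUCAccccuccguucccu
mmu-let-7a-5p: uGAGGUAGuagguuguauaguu
mmu-miR-21a-5p: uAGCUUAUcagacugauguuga
mmu-miR-451a: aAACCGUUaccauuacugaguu
RefSeq places mmu-miR-494-3p at chr12:109715367-109715388 and mmu-miR-134-5p at chr12:109734145-109734166, both on the plus strand, within the imprinted Dlk1-Dio3 miRNA cluster. It places mmu-miR-1224-5p at chr16:20604452-20604472 on the plus strand and mmu-miR-8110 at chr8:89024791-89024811 on the plus strand.

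Partial digestion raised the number of probes that lit up and, far more, the light from a few of them. At 0 U, 204, 238 and 203 miRNAs were detected on the arrays of mice 7, 10 and 9, and at 0.026 U 255, 274 and 408. The groups did not overlap, and the mean difference was 97.3 miRNAs. The exact permutation test, two-sided as throughout, gave p = 0.1, below which 3 arrays against 3 cannot go. Without mouse 9 the difference was 43.5, and with the titles of mouse 9 it was 77.7. The summed signal of the detected miRNAs was 7125, 10043 and 8699 intensity units at 0 U and 37604, 36325 and 177642 at 0.026 U. The ratio within a mouse was 5.28 in mouse 7, 3.62 in mouse 10 and 20.4 in mouse 9. On the log2 scale the mean total differed by 2.87 (exact permutation p = 0.1), by 2.13 without mouse 9 and by 2.42 with its titles. All 3 mice moved the same way, and mouse 9 moved farthest. Of all 1881 miRNAs, 39 (2.07%) went from detection on 0 of 3 arrays to 3 of 3, and 1 (0.0532%) went the other way. That 1 was mmu-miR-3100-3p, whose signals were 1.67 to 2.03 at 0 U and 2.36 to 2.78 at 0.026 U. These are unlike measures, since the signal sums only detected probes where a miRNA was detected and all probes where it was not. They therefore do not show which way its signal moved.

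**Figure D1:**
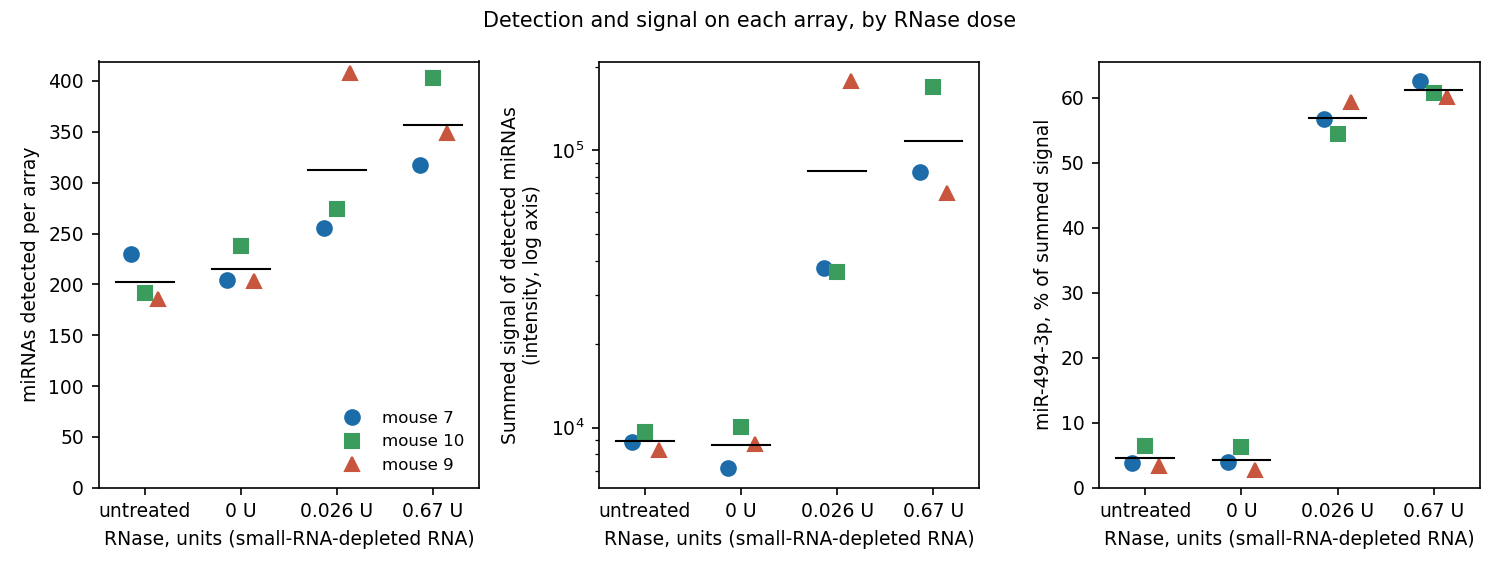
Detected miRNAs per array, their summed signal in intensity units on a log axis, and the share of it held by miR-494-3p, for untreated depleted RNA and at 0, 0.026 and 0.67 U RNase. Points are arrays, marked by mouse, and black lines are means of 3; the share jumps from 2.77% to 6.26% at 0 U to 54.4% to 59.4% at 0.026 U in every mouse, while the total at 0.026 U is 177642 in mouse 9 against 37604 and 36325 in the others.

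A single annotation took most of the gain. The signal of mmu-miR-494-3p (Mir494) was 286.6, 628.5 and 240.9 at 0 U and 21307, 19763 and 105508 at 0.026 U in mice 7, 10 and 9. It thus rose 74.4-fold, 31.4-fold and 438-fold within the mice. The change was 6.29 on the normalised scale, with an SE of 0.49 and a limma adjusted p of 1.34e-08, and had the same sign in 3 of 3 mice. This SE and p rest on a spread shared by all 24 arrays. With only the 6 compared arrays fitted, the limma adjusted p was 0.0194. The normalised scale, glog2, behaves like log2 at high signals and stays defined at signals below 0. Without mouse 9 the change was 5.53 (limma adjusted p = 1.06e-04), and with its titles 6.08. The miRNA held 4.02%, 6.26% and 2.77% of the detected signal at 0 U and 56.7%, 54.4% and 59.4% at 0.026 U. The mean shares differed by 52.5 percentage points (exact permutation p = 0.1), by 50.4 points without mouse 9 and by 52.7 points with its titles. Unlike the total signal, this share was alike in the 3 mice. The miRNA accounted for 69%, 72.8% and 62.3% of the signal gained in mice 7, 10 and 9. Both of its probes rose, from a mean of 256.6 to 29370 and from 128.7 to 19489. The opposite arm of the same hairpin, mmu-miR-494-5p, was detected on 0 of 3 arrays at 0 U, 0 of 3 at 0.026 U and 0 of 3 at 0.67 U.

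With mmu-miR-494-3p set aside, the summed signal still rose, from 6839 to 16297 in mouse 7, from 9414 to 16562 in mouse 10 and from 8459 to 72134 in mouse 9. The next largest gains lay with few annotations. mmu-miR-1224-5p (Mir1224) and mmu-miR-3960 followed mmu-miR-494-3p, in that order, in every mouse, and mmu-miR-8110 (Mir8110) was among the first 5 in every mouse. mmu-miR-1224-5p read 175.1, 400.9 and 159.6 at 0 U and 1938, 1809 and 11632 at 0.026 U, a change of 3.57 (SE 0.60, limma adjusted p = 8.62e-05). mmu-miR-3960 read 63.1, 92.8 and 56.2 at 0 U and 952, 1015 and 7590 at 0.026 U, a change of 4.43 (SE 0.55, limma adjusted p = 3.71e-06). mmu-miR-8110, whose sequence ends in an unbroken run of guanines, went from 70.5, 124.3 and 62.7 to 785.9, 831.9 and 5549. For each of these the lowest 0.026 U array lay above the highest 0 U array. Without mouse 9 the changes of mmu-miR-1224-5p, mmu-miR-3960 and mmu-miR-8110 were 2.75, 3.61 and 3.04. The first 10 gains together made up 88.9%, 93.1% and 85.7% of the signal gained in mice 7, 10 and 9.

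Among the tested miRNAs the calls were almost entirely upwards on the vsn scale. Of the 631 miRNAs that passed the filter, detection on at least 5 of the 24 arrays, 231 (36.6%) were higher and 1 (0.158%) was lower at 0.026 U. A miRNA was called where its limma adjusted p was under 0.05 and its change reached 1 glog2 unit in either direction. Without mouse 9 there were 102 higher (16.2%) and 1 lower, and all 102 were among the 231. With the titles of mouse 9 there were 217 higher (34.4%) and 1 lower, and all 217 were among the 231. The count of higher calls was 101 when only the 6 arrays were fitted. Of the 231, 117 were detected on all 3 arrays at 0.026 U, 12 on 2, 77 on 1 and 25 on none. The 77 were detected at 0.026 U only on the array of mouse 9. For the 25 detected on no array at either dose the change is one between signals below detection, and no fold is given for them. Of the 117, 54 had been detected on all 3 arrays at 0 U and 38 on none.

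The balance of higher and lower depended on the scaling. Higher and lower calls were 249 and 155 when arrays were scaled to the 75th percentile of the miRNAs detected on every array, and 236 and 59 when that percentile was taken over the whole array. Quantile normalization gave 190 and 122, vsn fitted on the 631 miRNAs only gave 145 and 171, and normexp gave 34 and 15. The median change over the 631 was 0.63, and 0.642, 0.103 and 1.48 in mice 7, 10 and 9. It was -0.50 with vsn on the 631 miRNAs only. Changes below are on the main vsn scale.

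The 12 largest increases were taken among calls that rose in all 3 mice and were detected on all 3 arrays at 0.026 U, ordered by fold or, without detection on every 0 U array, by the lower bound of the fold. By the fitted change the order differs. For example, mmu-miR-696 (7.42) and mmu-miR-1892 (5.52) would enter, but their bounds were only 4.53-fold and 8.91-fold. The 12 mixed late annotations with hairpin arms of early number. After mmu-miR-494-3p came mmu-miR-652-5p (Mir652), with 0.625, 1.36 and 0.630 at 0 U and 72.3, 52.4 and 458.2 at 0.026 U. It was detected on no 0 U array and was at least 57.1-fold higher (limma adjusted p = 1.34e-08). Such a bound sets the 0.026 U mean against the higher of the signal itself and the lowest detected signal on each 0 U array. mmu-miR-7036a-5p (Mir7036) rose from 5.30, 13.9 and 6.15 to 258.4, 255 and 1932, a 45.9-fold change. mmu-miR-135a-1-3p (Mir135a-1) rose from 0.732, 3.51 and 0.672 to 69.8, 67 and 361.7, a 44.2-fold change. Its 0 U signals in mice 7 and 9 were the lowest detected on those arrays, so this fold rests on values at the detection level. The 0 U and 0.026 U arrays did not overlap for any of these miRNAs.

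mmu-miR-1897-5p was at least 30.9-fold higher, mmu-miR-6908-5p (Mir6908) 30.1-fold, mmu-miR-5622-3p (Mir5622) 25.5-fold and mmu-miR-1306-3p (Mir1306) at least 22.4-fold. mmu-miR-6769b-5p (Mir6769b) was 22.2-fold higher, mmu-miR-3960 21.6-fold, mmu-miR-483-5p (Mir483) at least 18.9-fold and mmu-miR-134-5p (Mir134) at least 18.5-fold. Their limma adjusted p lay between 1.35e-08 and 3.23e-05. With only the 6 compared arrays fitted, the limma adjusted p of the 12 lay between 0.0124 and 0.0325. All 12 were also called without mouse 9 and with its titles. Without mouse 9 every change of the 12 was smaller, between 3.34 for mmu-miR-483-5p and 5.53 for mmu-miR-494-3p. The change of mmu-miR-652-5p was then 5.07, of mmu-miR-7036a-5p 4.69, of mmu-miR-134-5p 4.55 in place of 6.37 and of mmu-miR-1897-5p 3.87 in place of 5.04. That of mmu-miR-6908-5p moved least, from 4.91 to 4.42. With every probe summed, also those the scanner software left out, all 12 were called and mmu-miR-135a-1-3p changed by 4.83 in place of 5.47. Every probe of the 12 was higher in 3 of 3 mice, although the 2 probes of mmu-miR-6908-5p rose unequally, 9.97-fold and 58.3-fold in mean signal.

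**Figure D2:**
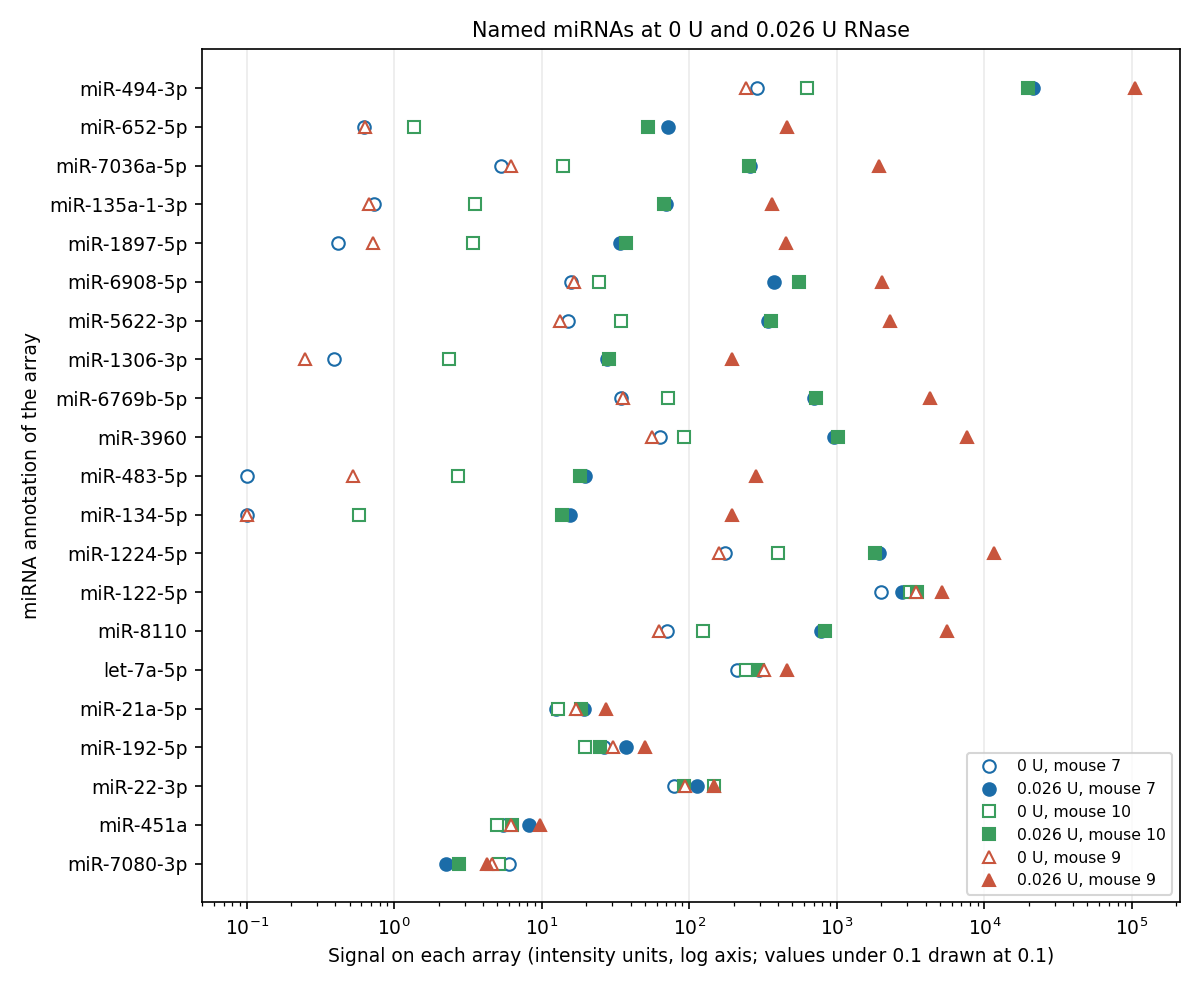
Signal on each array, in intensity units on a log axis, of the largest increases, the brightest annotations, the liver and blood cell miRNAs and the only lower call; open symbols are 0 U and filled symbols 0.026 U, shaped by mouse. The increases are separated by an empty gap between open and filled symbols, and the filled triangles of mouse 9 lie to the right of the other filled symbols, whereas the symbols of miR-122-5p, let-7a-5p, miR-192-5p and miR-22-3p interleave.

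The named liver and blood cell miRNAs passed no test on the main scale. mmu-miR-122-5p, the main hepatocyte miRNA, read 1982, 3116 and 3452 at 0 U and 2761, 3483 and 5146 at 0.026 U. Its change was 0.04 (SE 0.49, limma adjusted p = 0.982), with 0.51, 0.00 and -0.39 in mice 7, 10 and 9. mmu-let-7a-5p, of the let-7 family that restrains growth genes, read 212.1, 243.1 and 319.9 at 0 U and 295.2, 292.1 and 459.9 at 0.026 U, a change of 0.06 (SE 0.60). The groups overlapped for both. The raw signals of mmu-let-7a-5p, mmu-miR-451a, an erythroid miRNA, mmu-miR-192-5p, mmu-miR-122-5p and mmu-miR-21a-5p were all higher at 0.026 U within each mouse, by ratios between 1.12 and 1.64, with the groups apart for mmu-miR-21a-5p (12.5 to 17.1 against 18.4 to 27.3) and mmu-miR-451a (4.99 to 6.16 against 6.27 to 9.74). After scaling, the changes of these 2 were 0.23 and 0.12 and passed no test (limma adjusted p = 0.749 and 0.883). Those 5 became falls past the threshold under at least 1 of 3 other settings, 75th percentile scaling over miRNAs detected on all arrays, quantile normalization or normexp. mmu-miR-22-3p had ratios of 1.43, 0.629 and 1.56, a change of -0.20 on the main scale, and fell past the threshold under all 3 of these settings (-1.40, -2.07 and -1.83).

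By group, 0 of the 9 let-7 family members passed, with changes from -0.22 to 0.15 and a median of 0.06, against 0.63 for all miRNAs tested. Of the 5 hepatocyte markers 0 passed, with a median of 0.04. Of the miR-23, miR-24 and miR-27 clusters 0 of 5 tested passed, with a median of 0.16, and of the miR-17-92 and miR-106b-25 clusters 0 of 8, with a median of 0.01. In the latter clusters mmu-miR-106b-5p, mmu-miR-19a-3p, mmu-miR-19b-3p and mmu-miR-20a-5p were detected on 0 of the 6 arrays. The summed signal of the hepatocyte markers ran from 2027 to 3508 at 0 U and from 2827 to 5238 at 0.026 U. Of the markers of other cells in liver, 0 of 3 erythroid, 0 of 5 immune cell, 0 of 7 endothelial and stromal and 0 of 2 biliary miRNAs passed. These counts stand beside 36.6% higher over all 631, and 16.2% without mouse 9. Many of these markers lay below detection, so their counts do not show stable levels. Among the erythroid markers mmu-miR-144-3p was detected on 0 of the 6 arrays, and among the immune markers mmu-miR-142a-3p and mmu-miR-142a-5p on 0. Of the endothelial and stromal markers mmu-miR-126a-5p, mmu-miR-143-3p, mmu-miR-199a-5p and mmu-miR-214-3p were detected on 0 of the 6, as were both biliary miRNAs. Both groups of a mouse were portions of 1 isolated bulk RNA, so its makeup of cells was shared. Of 9 miRNAs foreign to liver, 1 passed the filter, mmu-miR-133a-3p, with a change of -0.03, and it too was detected on 0 of the 6 arrays. The medians of the let-7, hepatocyte, miR-23/24/27 and miR-17-92 groups were below 0 with either 75th percentile scaling, quantile normalization, vsn on the 631 miRNAs or normexp.

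Some long-known miRNAs were called. Of the 141 tested miRNAs numbered below 300, 16 were higher, and 10 of the 16 were detected on all 3 arrays at 0.026 U. mmu-miR-125a-3p read 1.98, 4.94 and 0.951 at 0 U and 20.8, 50.5 and 153.3 at 0.026 U, a change of 3.86 (SE 0.56, limma adjusted p = 1.95e-05) and of 2.97 without mouse 9. Its partner mmu-miR-125a-5p read 7.70, 20.6 and 10.5 at 0 U and 11.1, 21.9 and 19 at 0.026 U, a change of 0.10. In the miR-30 family mmu-miR-30c-1-3p was called (2.37) and mmu-miR-30c-5p was not (0.17). Without mouse 9 mmu-miR-30c-1-3p was not called either (1.77, limma adjusted p = 0.0547). In the miR-15/16 family mmu-miR-195a-3p was called (2.64) and mmu-miR-195a-5p was not (0.07), but the latter was detected on no array of either group. The other arm was tested for 6 of the 16, and 0 of those 6 passed. Over all 141 tested below 300 the share of higher calls was 11.3%, so 0 of 6 is near that background. For the other 10 there was no tested partner. These members were picked after their values were seen, and the difference between arms was not tested.

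The share of higher calls differed between number classes. Among the 326 tested miRNAs numbered 3000 and above, 156 were higher and 1 lower, with a median change of 1.49, against 0.05 below 300. The difference between the 2 medians was 1.44, with an SD of 1.67 over the mice. It was 0.36 without mouse 9, 0.17 with normexp and 0.15 with no filter. In the block from miR-6335 to miR-6420, 16 of 25 tested were higher, with mmu-miR-6385 at 13.1-fold. In the block from miR-8090 to miR-8120, 10 of 19 were higher, with mmu-miR-8110 at 14.4-fold. In the block from miR-7210 to miR-7700, 24 of 45 were higher, with mmu-miR-7226-5p at 12.2-fold. These counts stand beside 36.6% higher over all 631. Without mouse 9 the 3 blocks held 4, 6 and 7 higher calls, beside 16.2% over all 631, so the first and the last were then at the background share. The block from miR-690 to miR-721 held 11 higher of 16 (4 without mouse 9), led by mmu-miR-696, at least 4.53-fold. Of the Dlk1-Dio3 cluster 7 of 81 annotations were tested and 5 were higher, 2 of them without mouse 9, with mmu-miR-370-3p at 2.56-fold. That miRNA was not called without mouse 9.

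The repeat-rich families of the Sfmbt2 intron were counted in the same way, beside 36.6% higher and a median of 0.63 over all 631. Of the 12 tested of miR-466 and miR-297, 4 were higher, led by mmu-miR-466h-3p at 3.15-fold, with a median change of 0.82. Of the 13 tested of miR-467 and miR-669, 3 were higher, led by mmu-miR-467f at 2.95-fold, with a median change of 0.08. Without mouse 9 neither family held a higher call. Of the 4 tested Drosha-independent miRNAs, which skip the first cut of the hairpin, 1 was higher, mmu-miR-877-5p (3.48), and its other arm mmu-miR-877-3p was not called (-0.41). mmu-miR-877-5p was detected at 0.026 U on 1 array and was not called without mouse 9 (1.77).

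**Figure D3:**
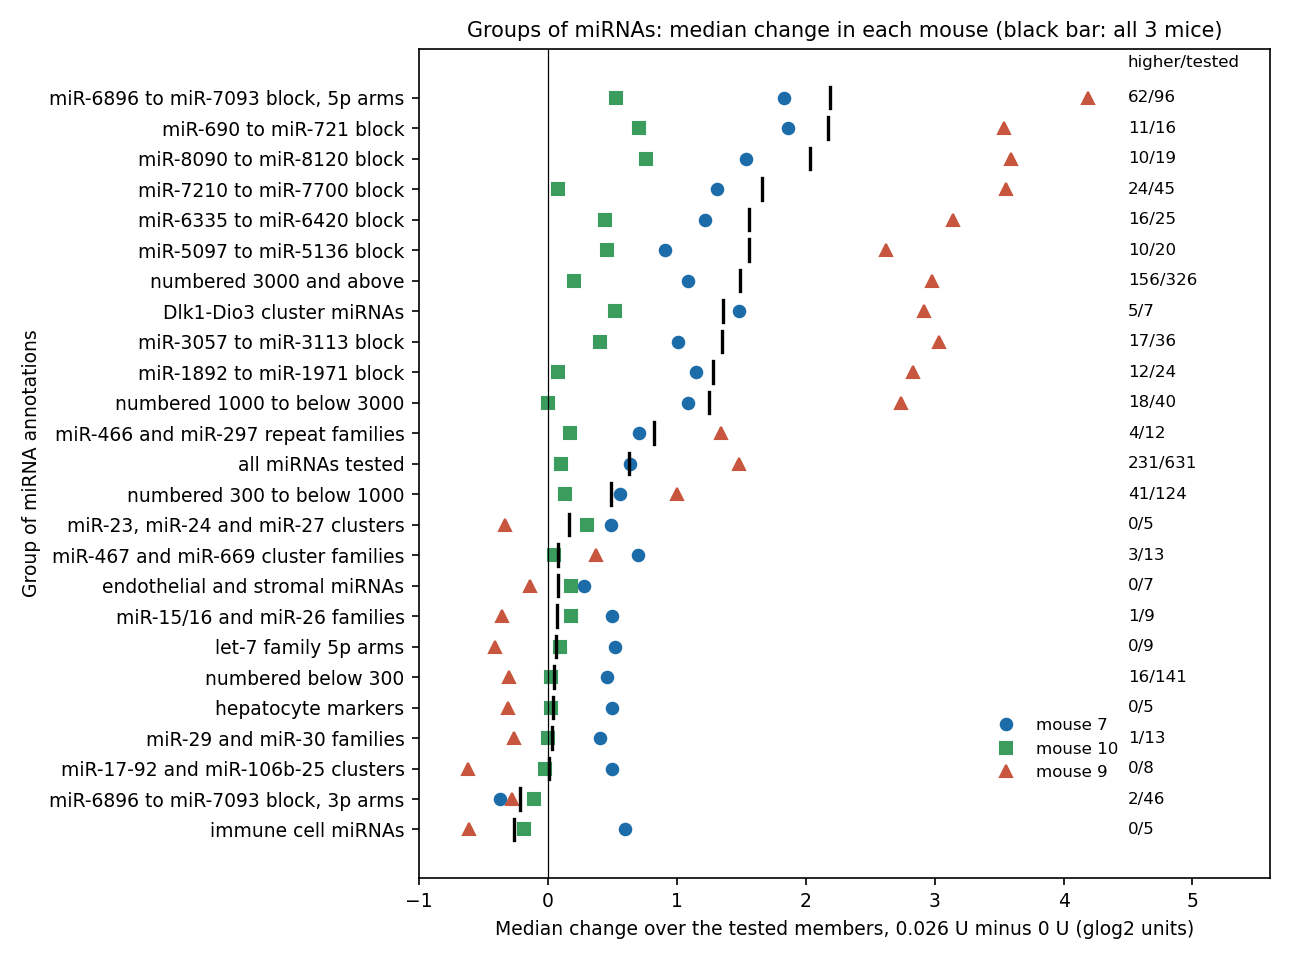
Median change from 0 U to 0.026 U, in glog2 units, of each group with at least 5 tested members; symbols are mice, black bars are the median of the fitted changes over all 3 mice, and the column at the right gives higher calls over tested miRNAs. The late number blocks lie to the right of 0 with mouse 9 farthest out and mouse 10 nearest 0, while let-7, hepatocyte and miR-29/30 groups lie within 0.52 of 0 in every mouse, and the 3p arms of the block from miR-6896 to miR-7093 lie below 0.

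Within 1 number block the 2 arms of the hairpins parted. Of the 200 5p arms of the block from miR-6896 to miR-7093, 96 were tested, 62 were higher and the median change was 2.19. Of the 198 3p arms, 46 were tested, 2 were higher, 1 was lower and the median was -0.22. Without mouse 9 the higher calls were 25 and 1. These counts stand beside 36.6% higher over all 631, and 16.2% without mouse 9. In the 25 hairpins with both arms tested, the 5p arm changed more than the 3p arm in 24. In 16 of the 25 the 5p arm alone was higher, and in 1 the 3p arm alone. The 5p arms were led by mmu-miR-7036a-5p and mmu-miR-6908-5p among those detected at 0 U. The arms differ in composition: their median guanine content was 47.8% in the 5p arms and 13.6% in the 3p arms, and their median cytosine content 13% and 47.6%.

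The only lower call was a 3p arm of this block. mmu-miR-7080-3p read 6.04, 5.13 and 4.60 at 0 U and 2.25, 2.74 and 4.25 at 0.026 U, a change of -1.02 with an SE of 0.32 and a limma adjusted p of 0.0173, and the groups did not overlap. The signal of a detected miRNA sums only the probes that the scanner software detected. Its mean of 5.26 at 0 U summed both probes (2.04 and 3.22), and its mean of 3.08 at 0.026 U was the second probe alone, while the first read 1.72. Each probe was lower in only 2 of 3 mice. With every probe summed the change was -0.49 (limma adjusted p = 0.0672) and no miRNA was called lower. The call also did not pass without mouse 9 (adjusted p = 0.157) or with its titles (adjusted p = 0.0774). The lower call in both those fits was a different one, mmu-miR-669b-5p (-2.43 without mouse 9), whose signals were below 0 on all 6 arrays.

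The composition of the annotated sequence went with the change among the tested miRNAs that have a sequence. All of these had passed the detection filter, and arrays of stored and of digested RNA counted towards it. The relation was not tested on the miRNAs that the filter left out, so it describes the tested set only. Mature sequences were found in RefSeq for 526 of the 631 miRNAs (83.4%), among them 196 of the higher calls. Guanine made up a median of 45.5% of the higher calls and 23.8% of those not called. Of the 124 miRNAs with under 20% guanine 7 were higher (5.65%), and of the 107 with 20% to under 30%, 12 (11.2%). The shares were 37 of 96 (38.5%) from 30% to under 40%, 66 of 108 (61.1%) from 40% to under 50%, and 74 of 91 (81.3%) from 50% upwards. The median changes in these 5 bins were -0.19, 0.03, 0.85, 2.20 and 2.56. The share of higher calls climbed at every step, and it also did so without mouse 9, from 0.806% and 3.74% to 17.7%, 32.4% and 35.2%.

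Across the 526 miRNAs the Spearman correlation of the change with guanine content was 0.72, against -0.45 for cytosine, -0.43 for uracil, 0.01 for adenine and 0.05 for length. It was 0.67, 0.38 and 0.68 in mice 7, 10 and 9 and 0.63 without mouse 9. Over the 151 miRNAs detected on all 3 arrays of both groups it was 0.69, and within the number classes from below 300 to 3000 and above it lay between 0.48 and 0.68. For those below 300 it was 0.27 with 75th percentile scaling, 0.25 with quantile normalization and 0.16 with normexp. For the change from untreated depleted RNA to 0 U, a step without enzyme, it was 0.02. These miRNAs share arrays and scaling, and the coefficients are descriptions. Under other scalings of the same arrays it was 0.64 to 0.70 over the 526. The run GGGG was present in 83 of the 196 higher calls (42.3%), 26 of the 329 not called (7.90%) and 182 of all 1608 array miRNAs with a sequence (11.3%). Only the strand of the annotated miRNA was searched.

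mmu-miR-494-3p was an exception to this. It holds 18.2% guanine and no GGGG, as its sequence above shows, and it changed more than any other miRNA with under 30% guanine. mmu-let-7a-5p holds 36.4% guanine and mmu-miR-7080-3p 13.6%, while mmu-miR-8110 holds 66.7%. Shared seeds were rare: the 196 higher calls with a sequence had 191 distinct seeds, and 5 seeds were each shared by 2 of them. One such pair was mmu-miR-290a-5p and mmu-miR-292a-5p, of 1 embryonic stem cell cluster.

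**Figure D4:**
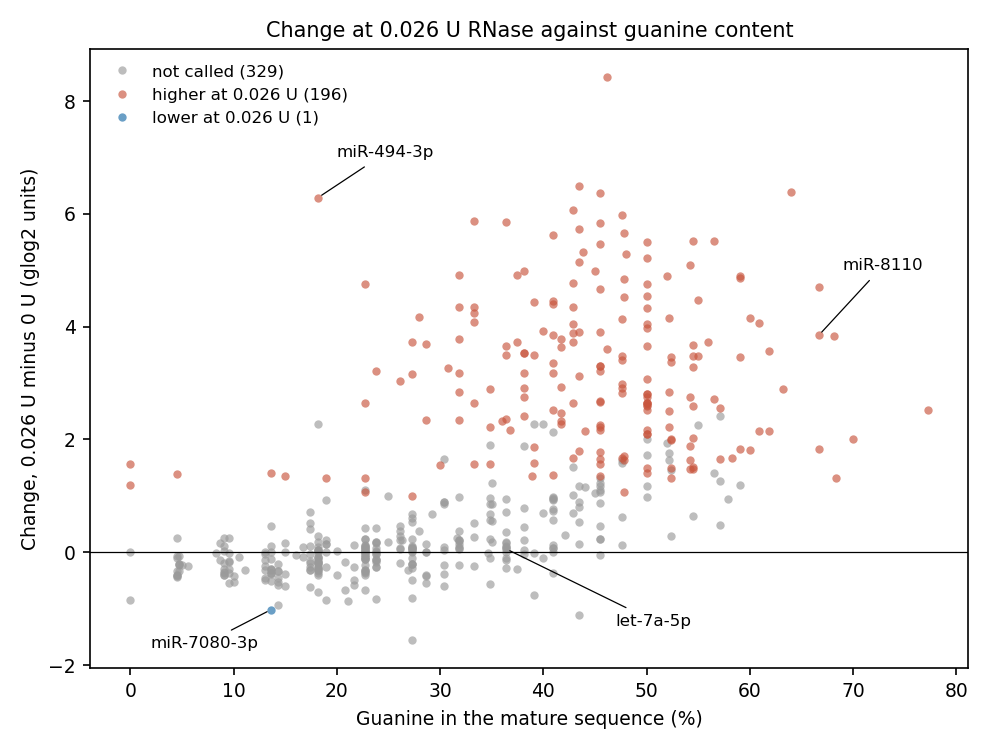
Change from 0 U to 0.026 U, in glog2 units, against the percentage of guanine in the RefSeq mature sequence, for the 526 tested miRNAs that have one; colours give the 196 higher calls, the 1 lower call and the 329 not called. The points move upwards from left to right, miR-494-3p at 18.2% lies far above the others with under 20% guanine, and the lower call miR-7080-3p sits at 13.6%.

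A further dose was compared to see how far partial digestion had gone. At 0.67 U the RIN was 2.9, 2.6 and 2.4, and 317, 403 and 349 miRNAs were detected in mice 7, 10 and 9. The direct test of 0.67 U against 0.026 U called 0 of 631 miRNAs (0%) in limma, with 9 at an unadjusted p under 0.05, and 0 in the exact rank test after adjustment. With the titles of mouse 9 it called 29 (4.6%), all higher at 0.67 U, and without mouse 9 it called 3. The mice did not move together. The median of the 117 called miRNAs detected on all 3 arrays at 0.026 U was 1.08 higher at 0.67 U in mouse 7, 1.70 higher in mouse 10 and -0.89 in mouse 9, and in mouse 9 0 of the 117 were higher at 0.67 U. mmu-miR-494-3p read 52249, 102286 and 42227 at 0.67 U, above 0.026 U in mice 7 and 10 and below it in mouse 9. Its share of the signal was 62.6%, 60.7% and 60.1%, each above the same mouse at 0.026 U (exact permutation p = 0.1).

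The step from untreated depleted RNA to 0 U covers incubation and re-isolation without enzyme. It took the detected miRNAs from 230, 192 and 186 to 204, 238 and 203 in mice 7, 10 and 9. In mouse 10 this difference of 46 was larger than the 36 from 0 U to 0.026 U. Between untreated depleted RNA and 0 U, 11 of 631 miRNAs (1.74%) were called in limma, 1 higher and 10 lower. Of the 11, 0 were among the 231, which made up 36.6% of the 631. So few members cannot show whether the 2 sets of calls are related. mmu-miR-494-3p read 344, 626 and 274.8 in untreated depleted RNA and held 3.88%, 6.50% and 3.31% of the signal. Both these sets and the 0.026 U comparison use the 0 U arrays.

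Storage of liver for 96 h, measured in other RNA that kept its small RNAs, raised most of the same annotations but not in the same proportions. At 96 h, 381 miRNAs (60.4%) were higher than at 0 h with DNase in limma. They included 223 of the 231 higher at 0.026 U, which is 96.5% of those and 58.5% of the storage list. The 96 h arrays with DNase, with 639, 582 and 707 miRNAs detected, counted towards the filter of at least 5 of 24 arrays. Of the 231, 77 were detected on 1 array at 0.026 U and 25 on none. The overlap therefore follows in part from the filter and is a description. The share of mmu-miR-494-3p was 3.94%, 2.37% and 2.97% at 96 h in mice 7, 10 and 9, against 54.4% to 59.4% at 0.026 U (exact permutation p = 0.1). Its signal at 96 h was 8400 ± 3225 (SD, n = 3). By contrast mmu-miR-3960 reached 14798 ± 3087 (SD, n = 3) at 96 h, above its 3 values at 0.026 U. Guanine content correlated with the storage change at 0.68. The RIN was 2.33 ± 0.0577 (SD, n = 3) at 96 h, and the isolation kit and the small RNAs present also differed, so these conditions cannot be told apart here.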

How the data were processed

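The labels give 8 groups of 3 arrays, 1 per mouse, and each mouse had a slide and scan of its own, which cannot be told apart from the animal. The scanner files the authors deposited hold background-subtracted intensity values, from Agilent Feature Extraction 10.10.1.1 per the file headers, for 1881 miRNAs with 30 spots each. The authors also deposited a table of vsn-normalized log2 values, used as an alternative. Here vsn was refitted to the miRNA signals (SD from the deposited values 0.0956), and the 631 miRNAs detected on at least 5 of 24 arrays were tested with limma 3.58.1 in R 4.3.3, as 8 group means with a variance trend and Benjamini-Hochberg adjustment over the 631. A miRNA counts as detected by the flag of the scanner file. Its signal there leaves out undetected probes: 2355 of the 8856 detected values (26.6%) differed from the sum of all probes by over 0.5%. For undetected miRNAs all probes were summed. A fit with every probe summed was added after seeing the data. No spot was saturated. The number of arrays limits the precision, and the fit was tested on simulated data. For array totals, detected counts and shares the exact permutation test was used, two-sided. The mouse numbers pair the arrays of 1 animal: after removal of group means, the 0 U and 0.026 U arrays of mice 7, 10 and 9 correlated at 0.282, -0.336 and -0.315. The replicate block for the mouse was an alternative, and its values stand in the closing section.

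Named miRNAs were the 12 largest increases among calls raised in 3 of 3 mice and detected on all 3 arrays at 0.026 U, up to 5 lower calls, the 5 brightest at 0.026 U, 8 fixed liver and study miRNAs, both arms of miR-494, and 2 to 4 per group. Both mmu-miR-320-3p, detected on 0 of 3 arrays at each dose, and mmu-miR-494-5p belong to them. Members and lists were chosen with earlier results of these data known. Other alternatives were 7 between-array scalings, normexp on the median spot signal, 2 filters, the arrays fitted, the rank test that the study's methods name and the dose labels of mouse 9. Sequences and symbols came from RefSeq (GRCm38.p6), matched by name for 1608 of 1881 miRNAs; the array design names an older build and no position from it was used.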

Additional observations from a re-analysis of the deposited data

How the results depend on the processing

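The 231 higher calls became 145 with vsn on the tested miRNAs only, 34 with normexp, 119 with detection required on all 3 arrays of a compared group, 101 with only the arrays of the groups compared and 0 with the exact rank test, whose smallest p is 0.1. Leaving out 1 mouse gave 102 to 279 higher and 0 to 3 lower calls. The 1 lower call became 171 with vsn on the tested miRNAs, 155 and 59 when scaled to the 75th percentile, over miRNAs present on every array or over the whole array, 122 with quantile normalization, 15 with normexp, 14 with no filter, and 0 with spike-in scaling, no normalization or the rank test. With every probe summed, an alternative chosen after seeing the data, 229 were higher, 225 of them among the 231, and 0 were lower. The median change of 0.63 moved to -0.50 with vsn on the tested miRNAs and to -0.10 with no filter. The 0 calls between 0.67 U and 0.026 U became 29 by the titles of mouse 9 and lay between 0 and 3 when a mouse was left out. Scaling to the 75th percentile over miRNAs present on every array turned mmu-miR-451a to -1.04, mmu-miR-192-5p to -1.05 and mmu-miR-122-5p to -1.16. Under quantile normalization mmu-let-7a-5p turned to -1.84, mmu-miR-122-5p to -1.92, mmu-miR-192-5p to -1.29 and mmu-miR-21a-5p to -1.20, and with normexp mmu-let-7a-5p turned to -1.62 and mmu-miR-122-5p to -2.02. Under the same 3 settings mmu-miR-22-3p fell to -1.40, -2.07 and -1.83. The difference between number classes, 1.44, was 0.17 with normexp and 0.15 with no filter. The cause of these moves was not tested. With the replicate block for the mouse, 232 were higher and 229 of these were among the 231, and the block changed no other count by over 1.5 times; within mice the smallest exact permutation p for detected miRNAs, total signal and the miR-494-3p share was 0.25. The rises in detected miRNAs (85.7 to 148.7 by other detection rules), in log2 total signal (2.73 to 2.82) and in the miR-494-3p share (52.2 points with all miRNAs summed) kept their direction under all alternatives run for them. Signals near the detection level limit what can be said of the 102 higher calls detected at 0.026 U on at most 1 array.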
